A study of Mus musculus with 4 samples.

Results

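Interleukins are secreted proteins through which leukocytes, epithelium and endothelium signal to one another, and each acts on cells that carry its receptor chains. Most receptors are built from a chain specific to a ligand and a chain shared by several, and they signal through JAK kinases and STAT transcription factors or, in the IL-1 and IL-17 families, through adaptors such as MyD88 and Act1. In lung, IL-33 is stored in the nuclei of alveolar and stromal cells and acts as an alarm signal on type 2 lymphoid cells, whereas IL-1 beta and IL-6 are made largely by activated myeloid and stromal cells. The genes described here are those whose GRCm38 symbol begins with Il and a digit, 85 of the 47729 genes counted. They comprised 37 ligands, 42 receptor chains, 4 soluble antagonists and 2 others, the enzyme gene Il4i1 and the antisense gene Il1bos.

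RNA of whole lung was sequenced from mice of strain BL/6 with the genotype Control (Rosa), given Sugen, a VEGF receptor inhibitor, together with hypoxia (label Sugen-Hypoxic, 2 libraries), or kept in room air (label Normoxic, 2 libraries). Sugen-Hypoxic replicates 1 and 2 were pools of 2 male mice each, Normoxic replicate 1 was a pool of 3 females, and Normoxic replicate 2 a pool of 1 female and 2 males. The sources used here do not give ages, doses or durations, hypoxia was not applied apart from Sugen, and the arm with KCNK3 mutations was not analysed here. Gene counts summed to 57.3 and 65.3 M in Sugen-Hypoxic libraries and 67.1 and 58.2 M in Normoxic libraries (M, 1e6). The protocol text names kidney, but 10 kidney markers together came to at most 1.75 CPM (counts per 1e6 gene counts) in any library, with Kap and Slc22a6 at 0 in all, against 30103 to 37878 CPM for 10 lung markers.

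Of the 85 genes, 56 passed the expression filter and 10 of these differed between Sugen-Hypoxic and Normoxic lungs at an adjusted p under 0.05 (edgeR's quasi-likelihood test, Benjamini-Hochberg over 18783 genes). The other 46 tested genes did not pass, 14 of them with an unadjusted p under 0.05. Over all genes tested, 11.5% were called, 5.51% higher and 6.01% lower. In CPM, both Sugen-Hypoxic libraries lay above both Normoxic ones in 4002 of the 18783 genes tested and below both in 7508. Lack of overlap is thus common with 2 libraries in each group, and in the 10 called genes it is also part of the choice by p-value. Of the 16 ligands tested, 0 rose and 3 fell: Il1f9, Il1b and Il16. Of the 35 receptor chains tested, 1 rose, Il1r1, and 6 fell: Il2rb, Il18rap, Il10ra, Il6ra, Il27ra and Il17ra. The 3 antagonists and 2 others tested did not pass. The median log2 fold change, Sugen-Hypoxic over Normoxic, was -0.03 for ligands, -0.19 for receptors and 0.00 for all genes tested, and no test was made between ligands and receptors.

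**Figure D1:**
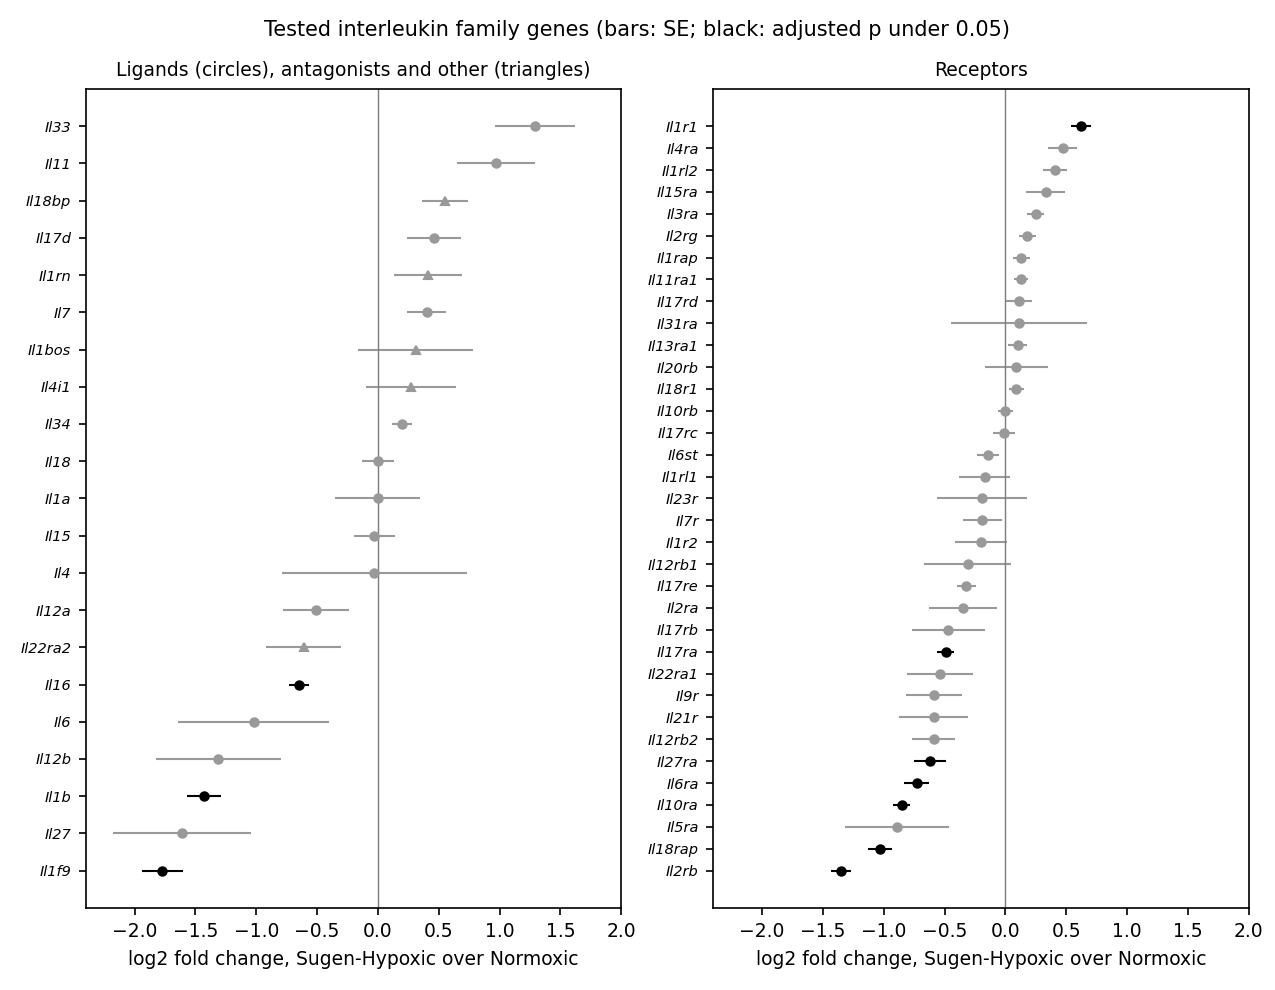
Log2 fold change of the 56 tested interleukin family genes (x axis, Sugen-Hypoxic over Normoxic, 2 libraries each), with ligands, antagonists and others on the left and receptors on the right; bars are SE and black marks an adjusted p under 0.05. The black points are Il16, Il1b and Il1f9 on the left and 7 receptor chains on the right, of which only Il1r1 lies above 0.

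The folds of these 10 genes moved little when a Normoxic library was left out, but most or all of the calls were lost. Without Normoxic replicate 1, which leaves the spread to the Sugen-Hypoxic pair and the lone library assumed to vary like it, 0 of the 10 passed, and without Normoxic replicate 2 only Il1b and Il2rb did. Their log2 fold changes shifted by at most 0.15 and 0.16 in these fits, both for Il1b. Without a Sugen-Hypoxic library the spread came from the Normoxic pair alone. Without Sugen-Hypoxic replicate 1 or 2 the log2 fold change was -1.57 and -1.31 for Il1b, and 0.71 and 0.53 for Il1r1. In a fit that also held the male fraction of the pools, with 1 residual degree of freedom remaining, 0 of the 10 passed and all 10 kept their direction. Log2 fold changes there were -1.38 for Il2rb, -1.80 for Il1f9, -1.74 for Il1b and 0.65 for Il1r1, and the shift from the fit without it was at most 0.31. Sex and treatment are partly confounded, since both Sugen-Hypoxic pools were all male and only 1 Normoxic pool held males. The mixed Normoxic pool differed from the all-female one by -0.18 (Il6ra) to 0.33 (Il1b) on the log2 scale across the 10 genes.

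The stretches before the transcription start are shown for 4 of the 10, as 2 pairs of genes on 1 chromosome each. The ligand genes Il1b and Il1f9 both fell, while the receptor genes Il1r1 and Il18rap moved in opposite directions within 1 receptor gene cluster. Each line gives 250 bases 5′ to 3′ from RefSeq (GRCm38.p6), with matches to the searched motifs in capitals.
Il1b (chr2:129371140-129371389, minus strand): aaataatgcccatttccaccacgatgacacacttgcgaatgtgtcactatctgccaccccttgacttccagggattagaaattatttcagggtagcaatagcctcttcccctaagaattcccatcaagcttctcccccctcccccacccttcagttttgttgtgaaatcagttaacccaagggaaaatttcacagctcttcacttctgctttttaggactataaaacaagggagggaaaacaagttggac
Il1f9 (chr2:24186226-24186475, plus strand): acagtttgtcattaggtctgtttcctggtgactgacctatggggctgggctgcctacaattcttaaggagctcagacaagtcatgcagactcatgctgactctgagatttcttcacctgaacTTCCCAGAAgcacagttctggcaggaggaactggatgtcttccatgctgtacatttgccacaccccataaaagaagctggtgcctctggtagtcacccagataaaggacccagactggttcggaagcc
Il1r1 (chr1:40224830-40225079, plus strand): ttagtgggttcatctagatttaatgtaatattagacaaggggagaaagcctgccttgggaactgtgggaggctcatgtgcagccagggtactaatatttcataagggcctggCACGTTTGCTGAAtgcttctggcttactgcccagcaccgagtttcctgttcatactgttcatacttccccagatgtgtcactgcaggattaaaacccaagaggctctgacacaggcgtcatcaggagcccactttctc
Il18rap (chr1:40515112-40515361, plus strand): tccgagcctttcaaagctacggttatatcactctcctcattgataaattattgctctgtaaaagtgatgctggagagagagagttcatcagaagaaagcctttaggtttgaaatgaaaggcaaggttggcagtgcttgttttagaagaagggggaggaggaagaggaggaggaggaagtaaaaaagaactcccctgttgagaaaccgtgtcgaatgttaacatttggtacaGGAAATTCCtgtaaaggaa

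Letters for 6 motifs were searched on both strands: a kappaB type (GGANTTTCC), AP-1 (TGANTCA), STAT (TTCNNNGAA), C/EBP (TTGCNNAA), the hypoxia response core (ACGTG) and the xenobiotic response core (GCGTG). No match lay in the Il1b stretch. Il1f9 held a STAT match at bases 128 to 120 before the start, and Il18rap a kappaB-type match at bases 19 to 11. Il1r1 held the hypoxia core at bases 138 to 134 and, directly after it, a C/EBP match at bases 133 to 126, with no overlap between them. RefSeq gives 2 promoters for Il1r1, and only the stretch before the annotated gene start is shown. Among 32851 promoters of the same length, 7.02% held the STAT letters, 1.07% the kappaB-type letters, 9.56% the C/EBP letters, 16.6% ACGTG, 6.75% the AP-1 letters and 28.2% GCGTG. In the 81 promoters of the 66 member symbols (of 83) with an entry, these shares were 11.1%, 6.17%, 17.3%, 7.41%, 17.3% and 22.2%, in the same order. A match is a run of letters and no evidence of binding.

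Of the 3 ligands that fell, Il1f9 and Il1b belong to the IL-1 family. Il1f9 (ENSMUSG00000044103, GRCm38 chromosome 2, 24186476 to 24193568, plus strand) encodes IL-36 gamma, an epithelial and myeloid cytokine of that family. It stood at 2.02 and 1.82 CPM in Sugen-Hypoxic lungs and 6.75 and 6.97 CPM in Normoxic lungs, a log2 fold change of -1.77 ± 0.17 (SE; adjusted p = 0.00675, edgeR), or 3.4-fold lower. The groups lay far apart and each pair of libraries close together. Il1b (ENSMUSG00000027398, chromosome 2, 129364570 to 129371139, minus strand), the gene of IL-1 beta, was at 19.3 and 16.4 CPM in Sugen-Hypoxic lungs and 44.8 and 56.4 CPM in Normoxic lungs, 2.7-fold lower (log2 -1.43 ± 0.14, adjusted p = 0.00675, edgeR). Here Normoxic replicate 2, the mixed pool, was the highest library, and sex is partly confounded with treatment. The antisense gene Il1bos, which overlaps Il1b on the other strand, had 0.384 and 0.612 CPM in Sugen-Hypoxic and 0.313 and 0.532 CPM in Normoxic libraries. Il1a, the gene of IL-1 alpha, was at 1.74 and 3.23 CPM in Sugen-Hypoxic lungs and within that range, at 2.98 and 2.22 CPM, in Normoxic lungs. Il18, whose product matures through the inflammasome, was at 8.81 and 10.6 CPM against 10.5 and 9.79 CPM, with a log2 fold change of 0.00 ± 0.13.

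**Figure D2:**
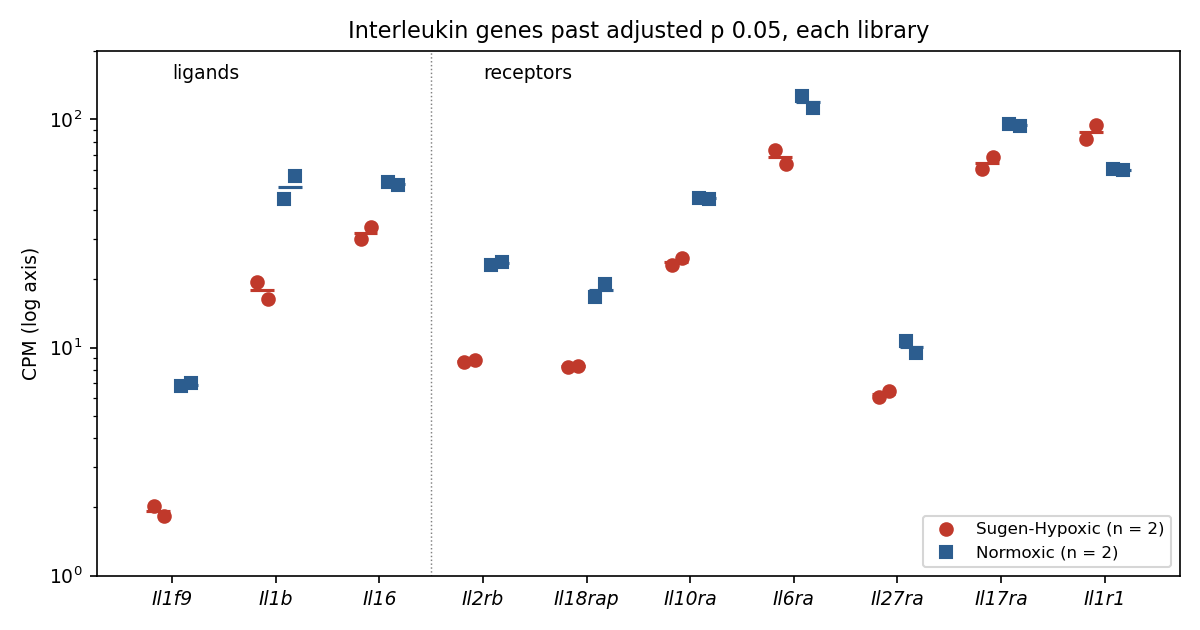
CPM (y axis, log scale) of the 10 genes past the threshold in each library, ligands left and receptors right; circles are Sugen-Hypoxic and squares Normoxic libraries, and short lines are the means of 2. The genes were picked by their p-value, so separate groups are part of the choice; Il2rb is at 8.62 and 8.81 CPM against 23 and 23.8 CPM, and Il1r1, the gene that rose, at 82 and 94.6 CPM against 60.6 and 60 CPM.

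The remaining ligand that fell was Il16 (ENSMUSG00000001741, chromosome 7, 83642825 to 83745726, minus strand), whose precursor is made by lymphocytes and cleaved to a CD4-binding attractant. Its level was 29.9 and 33.9 CPM in Sugen-Hypoxic lungs and 53 and 51.4 CPM in Normoxic lungs, 1.56-fold lower (log2 -0.65 ± 0.08, adjusted p = 0.00958, edgeR). Both Sugen-Hypoxic libraries were below both Normoxic ones, as in 7508 of the 18783 genes tested. The gene Stard5 overlaps Il16 on the opposite strand, and the counts used here are by strand.

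Il33 (ENSMUSG00000024810, chromosome 19, 29925114 to 29960718, plus strand) was the most abundant ligand per length, with a mean of 50.6 CPM per kb of exon over the 4 libraries. It was at 130 and 279 CPM in Sugen-Hypoxic lungs and 87.7 and 87.1 CPM in Normoxic lungs. Both Sugen-Hypoxic libraries were above both Normoxic ones, as in 4002 of the 18783 genes tested. But the Sugen-Hypoxic libraries differed from each other by 1.10 on the log2 scale. The log2 fold change of 1.29 ± 0.33 did not pass (adjusted p = 0.0615, edgeR). It was 0.66 without Sugen-Hypoxic replicate 2 and 1.73 without replicate 1. Next per length came Il1b at 17.9, Il18 at 9.62, Il34 at 8.88 and Il16 at 5.35 CPM per kb. Il34, a ligand of the macrophage receptor Csf1r, was at 18.4 and 18 CPM in Sugen-Hypoxic and 16.3 and 16.9 CPM in Normoxic libraries, a difference that did not pass (log2 0.20 ± 0.08, adjusted p = 0.164, edgeR).

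Ligands of the IL-6 and IL-12 group were scarce and none of the 5 tested passed. Il6, a pro-inflammatory cytokine, was at 0.698 and 2.48 CPM in Sugen-Hypoxic libraries and 4.47 and 2.28 CPM in Normoxic ones, so the groups overlapped. Il11, a stromal cytokine linked to fibrosis in mice, was at 1.22 and 1.79 CPM in Sugen-Hypoxic lungs and 0.864 and 0.739 CPM in Normoxic lungs (log2 0.97 ± 0.32, adjusted p = 0.108, edgeR). Il12b, the shared subunit of IL-12 and IL-23, was at 0.244 and 0.612 CPM against 0.879 and 1.37 CPM, and Il12a, the other IL-12 subunit, at 1.26 and 1.15 CPM against 1.56 and 2.04 CPM. Il27 rested on 10 and 10 reads in Sugen-Hypoxic and 22 and 43 reads in Normoxic libraries. In Il6 and Il12b the libraries of a group differed from each other by up to 1.83 and 1.33 on the log2 scale.

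The lymphoid survival cytokines did not pass. Il7, needed by lymphocytes and made by stromal cells, was at 5.09 and 5.95 CPM in Sugen-Hypoxic lungs and 4.35 and 4.43 CPM in Normoxic lungs (log2 0.40 ± 0.16, adjusted p = 0.16, edgeR). Il15, a growth factor of NK cells, was at 5.37 and 4.51 CPM against 5.56 and 5.03 CPM, with overlapping groups. Il17d, an IL-17 family member of tissue cells, was at 6.47 and 4.59 CPM against 4.13 and 4.29 CPM.

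The cytokine genes Il4, Il5, Il13 and Il17a were at or near the limit of detection. Of the 37 ligands 21 did not pass the expression filter, 9 of them with 0 reads in all 4 libraries, which allows up to 0.0447 to 0.0523 CPM per library (3 counts; counting error only). The highest was Il13, with 2 and 15 reads in Sugen-Hypoxic and 4 and 2 in Normoxic libraries. Il5 had 4 and 6 reads against 10 and 8, and Il4, which just passed the filter, had 4 and 12 against 6 and 11. Il10 had 6 and 10 reads against 6 and 2, Il2 had 2 and 0 against 8 and 0, and Il17a had 0 and 0 against 0 and 2. Differences in these genes were not detectable at this depth. The 7 receptor genes under the filter included Il13ra2, an IL-13 decoy receptor, at 8 and 20 reads in Sugen-Hypoxic and 6 and 0 in Normoxic libraries. They also included the 3 near-identical copies of Il11ra2, whose shared reads are not counted.

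Of the 6 receptor chains that fell, 3 are known from T and NK cells: Il2rb, Il18rap and Il27ra. Il2rb (ENSMUSG00000068227, chromosome 15, 78479256 to 78495271, minus strand) encodes the beta chain for IL-2 and IL-15, abundant on NK cells and memory T cells. It was at 8.62 and 8.81 CPM in Sugen-Hypoxic lungs and 23 and 23.8 CPM in Normoxic lungs, 2.56-fold lower (log2 -1.35 ± 0.08, adjusted p = 0.00357, edgeR). The libraries of each group were nearly equal. Il18rap (ENSMUSG00000026068, chromosome 1, 40515362 to 40551705, plus strand), the signalling partner chain of the IL-18 receptor, was at 8.25 and 8.34 CPM against 16.7 and 18.9 CPM, 2.04-fold lower (log2 -1.03 ± 0.10, adjusted p = 0.00675, edgeR). Il27ra (ENSMUSG00000005465, chromosome 8, 84030294 to 84042589, minus strand), which binds IL-27 on T and NK cells, was at 6.05 and 6.47 CPM against 10.7 and 9.51 CPM (log2 -0.62 ± 0.13, adjusted p = 0.0354, edgeR). In each of these genes both Sugen-Hypoxic pools were below both Normoxic pools, as in 7508 of the 18783 genes tested.

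Markers of T and NK cells moved with these 3 genes and with Il16. Of 18 such markers 15 fell and 0 rose, against 6.01% of all genes tested called lower and 5.51% higher. None was at 0, and their summed level was 61.1 and 71.5 CPM in Sugen-Hypoxic lungs against 155 and 137 CPM in Normoxic lungs. The cytotoxic granule gene Gzma fell most, to 3.04 and 3.66 CPM against 20.9 and 14.9 CPM, and the T cell receptor chain gene Cd3e was at 4.15 and 4.41 CPM against 8.56 and 7.51 CPM. Their part in the results for Il2rb, Il18rap, Il27ra and Il16 was not tested. Markers of B cells and neutrophils were lower too, with median log2 fold changes of -1.32 and -1.23 against -1.25 for T and NK cells. In whole-lung RNA fewer cells of a type and less RNA per cell cannot be told apart. Other lymphocyte receptors did not pass. Il7r, the IL-7 receptor chain, was at 18.7 and 24.7 CPM in Sugen-Hypoxic lungs and 28.4 and 23.5 CPM in Normoxic lungs, with overlap. Il21r was at 5.77 and 10.9 CPM against 12.6 and 13.7 CPM, Il2ra, the alpha chain of activated and regulatory T cells, at 2.37 and 4.15 CPM against 4.22 and 4.48 CPM, and Il12rb2 at 2.69 and 3.15 CPM against 4.59 and 4.65 CPM. Il12rb1, its partner chain, was at 0.785 and 1.5 CPM against 1.5 and 1.48 CPM. For Il12rb2 the log2 fold change of -0.59 ± 0.18 had adjusted p = 0.0885 (edgeR).

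**Figure D3:**
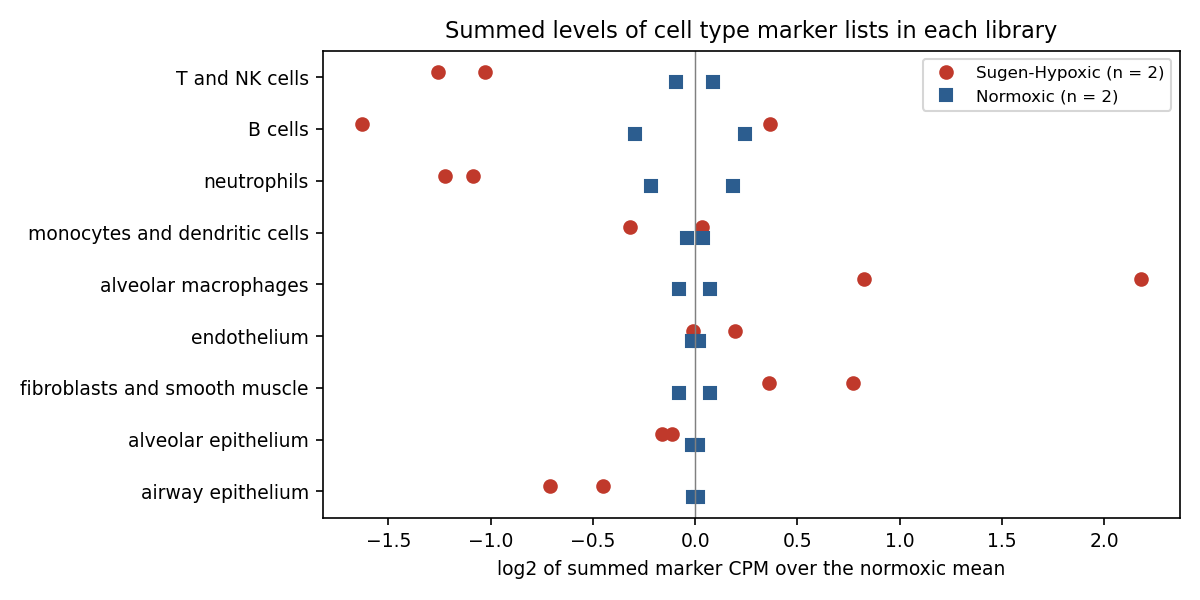
Summed CPM of 9 cell type marker lists in each library, as log2 over the Normoxic mean (x axis); circles are Sugen-Hypoxic and squares Normoxic libraries. T and NK cell markers (61.1 and 71.5 CPM against 155 and 137) and neutrophil markers (273 and 248 CPM against 499 and 659) lie left of the Normoxic libraries, and alveolar macrophage markers (1904 and 4864 CPM against 1131 and 1017, mostly Chil3) lie right of them. B cell markers, Ighm among them, overlap between groups (289 and 1150 CPM against 1058 and 728).

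The other receptor chains that fell are found on myeloid cells as well as on other cells. Il10ra (ENSMUSG00000032089, chromosome 9, 45253837 to 45269149, minus strand), the leukocyte chain that binds IL-10, was at 22.9 and 24.8 CPM in Sugen-Hypoxic lungs and 45.3 and 44.9 CPM in Normoxic lungs, 1.8-fold lower (log2 -0.85 ± 0.07, adjusted p = 0.00468, edgeR). Il6ra (ENSMUSG00000027947, chromosome 3, 89864059 to 89913196, minus strand), the IL-6 binding chain of myeloid cells, T cells and hepatocytes, was at 73.3 and 63.9 CPM against 127 and 112 CPM, 1.66-fold lower (log2 -0.73 ± 0.10, adjusted p = 0.0152, edgeR). Both genes were lower in both Sugen-Hypoxic libraries than in either Normoxic one, as were 7508 of the 18783 genes tested. Il17ra (ENSMUSG00000002897, chromosome 6, 120463247 to 120487559, plus strand), the chain common to IL-17 receptors, was at 60.4 and 68.5 CPM against 95.7 and 93.8 CPM, 1.4-fold lower (log2 -0.49 ± 0.07, adjusted p = 0.0159, edgeR). Without Sugen-Hypoxic replicate 1 or 2 its log2 fold change was -0.41 and -0.57.

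Neutrophil markers were lower in the same libraries. The shares called over all genes tested were 5.51% higher and 6.01% lower. Of 10 markers measured 9 were tested, 7 fell and 0 rose, none was at 0 in all libraries, and their sum was 273 and 248 CPM in Sugen-Hypoxic lungs against 499 and 659 CPM in Normoxic lungs. Of 11 monocyte and dendritic cell markers 1 fell, a share (9.09%) near that of all genes. It was Ccr2, a receptor that brings monocytes into tissue, at 21.5 and 24.4 CPM against 57.4 and 50.9 CPM. The summed level of these 11 overlapped between groups, at 417 and 532 CPM against 533 and 506 CPM. Of 9 B cell markers 8 fell and 0 rose, and the 9 summed to 289 and 1150 CPM against 1058 and 728 CPM, with overlap. The 8 that fell summed to 126 and 155 CPM against 381 and 364 CPM, a separation that is part of their choice. The remaining one, the antibody heavy chain gene Ighm, was at 163 and 995 CPM against 676 and 363 CPM. Of 7 tested airway epithelial markers 4 fell and 0 rose, and the list of 8 summed to 11974 and 10026 CPM against 16530 and 16242 CPM. The part of these cells in the levels of Il2rb, Il18rap, Il27ra, Il10ra, Il6ra, Il17ra, Il1b, Il1f9 and Il16 was not tested.

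Il1r1 was the 1 receptor gene that rose. It encodes the signalling receptor of IL-1 alpha and IL-1 beta, carried by endothelium, fibroblasts and some leukocytes (ENSMUSG00000026072, chromosome 1, 40225080 to 40317257, plus strand). Its level was 82 and 94.6 CPM in Sugen-Hypoxic lungs and 60.6 and 60 CPM in Normoxic lungs, 1.53-fold higher (log2 0.62 ± 0.08, adjusted p = 0.0106, edgeR). Both Sugen-Hypoxic libraries were above both Normoxic ones, as in 4002 of the 18783 genes tested. Normoxic replicate 2 differed from replicate 1 by -0.01 on the log2 scale. Endothelial markers rose in 3 of 11 cases and fell in 1, against 5.51% of all genes called higher and 6.01% lower. Their sums were 7022 and 6097 CPM against 6218 and 6073 CPM. Of 11 fibroblast and smooth muscle markers 3 rose and 0 fell, with sums of 4583 and 6085 CPM against 3376 and 3753 CPM. Their part in the level of Il1r1 was not tested.

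Il1r1 lies in a cluster of 6 receptor genes of the IL-1 family on the plus strand of chromosome 1, from Il1r2 (40074079 to 40125231) to Il18rap (ending at 40551705). Along the chromosome the log2 fold changes were -0.20 ± 0.21 for the decoy receptor Il1r2, 0.62 for Il1r1, 0.41 ± 0.10 for the IL-36 receptor Il1rl2, -0.17 ± 0.21 for the IL-33 receptor Il1rl1, 0.09 ± 0.06 for the IL-18 binding chain Il18r1 and -1.03 for Il18rap. Only the second and the last passed. Il1rl2 was at 19.6 and 21.1 CPM in Sugen-Hypoxic lungs and 14.8 and 17.4 CPM in Normoxic lungs (adjusted p = 0.0592, edgeR). It passed in DESeq2 (adjusted p = 0.0188), which called more genes in all. Under upper-quartile and library-size scaling it did not pass (adjusted p = 0.0821 and 0.101, edgeR). Without Sugen-Hypoxic replicate 1 or 2 its log2 fold change was 0.45 and 0.37, and with the male fraction 0.20.

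**Figure D4:**
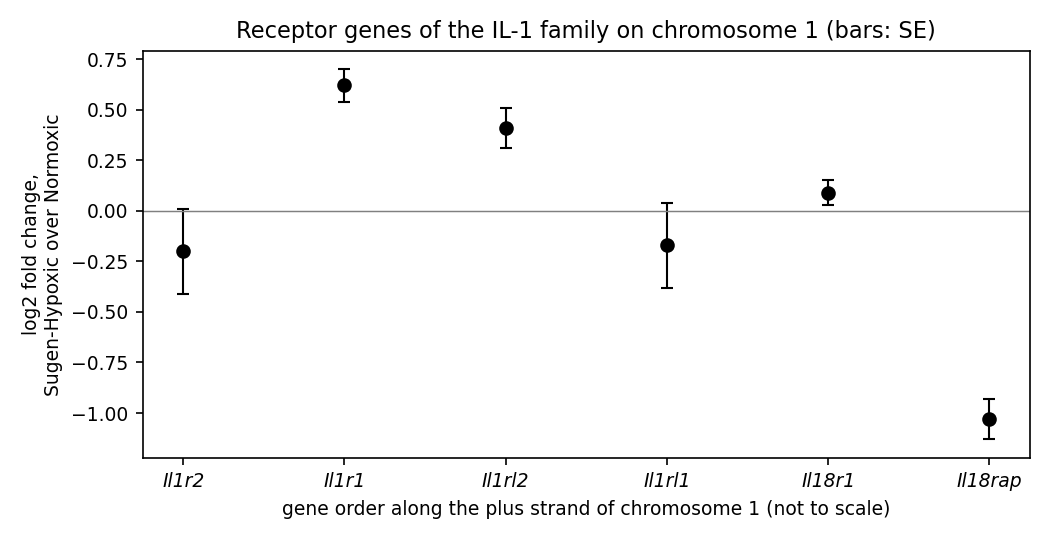
Log2 fold change, Sugen-Hypoxic over Normoxic (y axis, n = 2 each, bars SE), of 6 IL-1 family receptor genes in their order on chromosome 1 (x axis, not to scale). Il1r1 at 0.62 and Il18rap at -1.03 passed the threshold, and Il1r2, Il1rl2, Il1rl1 and Il18r1 did not.

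For each receptor chain that passed, the partner chain did not pass. Il2rg, the gamma chain shared by several interleukin receptors, was at 26.9 and 27 CPM in Sugen-Hypoxic lungs and 24.7 and 25.1 CPM in Normoxic lungs (log2 0.18 ± 0.07, adjusted p = 0.138, edgeR). The log2 ratio of Il2rb to Il2rg within a library was thus -1.64 and -1.62 in Sugen-Hypoxic and -0.10 and -0.08 in Normoxic libraries. Il10rb, the broadly expressed partner of Il10ra, was at 54.7 and 57.9 CPM against 58.9 and 59.3 CPM, a log2 fold change of 0.00 ± 0.06 after scaling. Il18r1 was at 108 and 116 CPM against 107 and 113 CPM, and was the third most abundant receptor per length, at a mean of 23 CPM per kb. The ratio of Il18rap to Il18r1 was -3.71 and -3.80 against -2.68 and -2.58 on the log2 scale. That of Il10ra to Il10rb was -1.26 and -1.22 against -0.38 and -0.40. Each pair was picked for a chain past the threshold, so separate ratios are part of the choice. In these receptors the ratio separated the groups by more than it varied within them.

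The same held for Il6ra. Il6st, the gp130 chain through which IL-6, IL-11 and IL-27 signal and the most abundant receptor per length at 57 CPM per kb, was at 590 and 586 CPM in Sugen-Hypoxic lungs and 726 and 630 CPM in Normoxic lungs (log2 -0.14 ± 0.09, adjusted p = 0.386, edgeR). Il6ra over Il6st was -3.01 and -3.20 against -2.52 and -2.49, and Il27ra over Il6st -6.61 and -6.50 against -6.09 and -6.05, both as log2 ratios. Il11ra1, the IL-11 binding chain, which also uses gp130, was at 47 and 45.3 CPM against 44.1 and 44.6 CPM. It is a close copy of Il11ra2 and may be undercounted. Il17rc, which pairs with Il17ra, was at 26.7 and 24.9 CPM against 25.8 and 28.5 CPM, and Il17rd at 85.4 and 70.2 CPM against 74.9 and 76.1 CPM. The log2 ratio of Il17ra to Il17rc was 1.18 and 1.46 against 1.89 and 1.72. For this pair the Sugen-Hypoxic libraries differed from each other by more than the nearest libraries of the groups did. Il17re, the receptor chain for IL-17C, was at 22.5 and 22.1 CPM against 27.7 and 30.4 CPM and just missed the threshold (log2 -0.32 ± 0.08, adjusted p = 0.0568, edgeR). Il17rb, the IL-25 receptor chain, was low, at 0.89 and 0.979 CPM against 1.55 and 1.17 CPM.

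Il1rap, the accessory chain shared by the receptors of IL-1, IL-33 and IL-36, was at 30.5 and 31.8 CPM in Sugen-Hypoxic lungs and 29 and 30.8 CPM in Normoxic lungs. Il1r1 over Il1rap was 1.43 and 1.57 against 1.06 and 0.96 on the log2 scale. The differences between partner chains were not tested: with 2 libraries in each group an exact two-sided permutation test cannot give a p below 0.333.

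**Figure D5:**
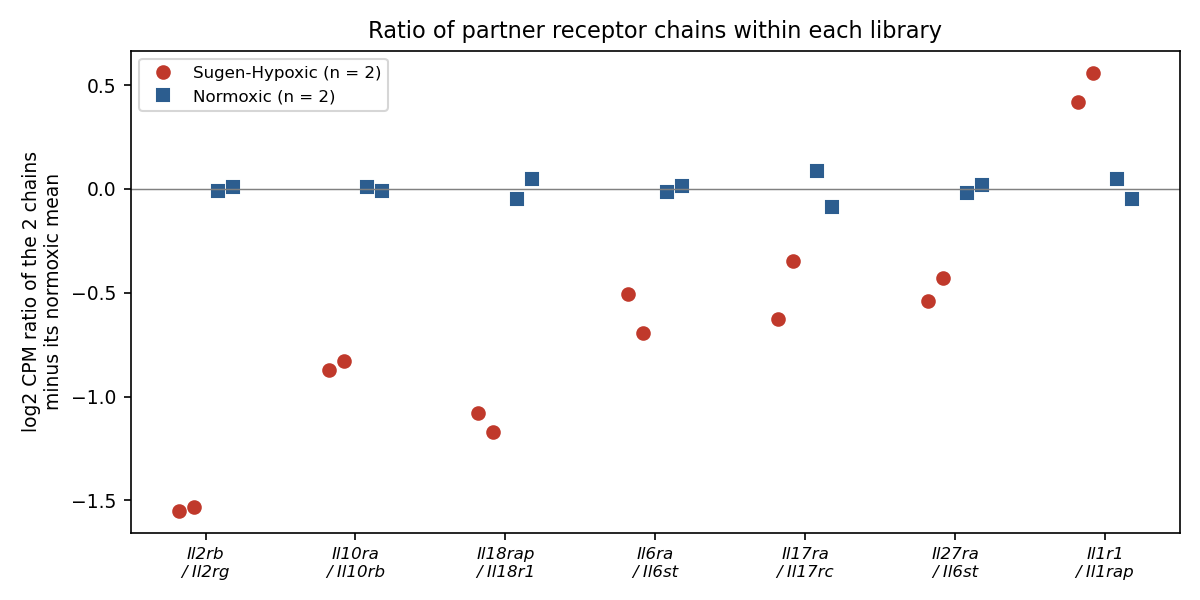
Log2 CPM ratio of 7 pairs of partner receptor chains in each library, less its Normoxic mean (y axis); circles are Sugen-Hypoxic and squares Normoxic libraries. The pairs were picked for a chain past the threshold, so separate ratios are part of the choice. The 6 ratios with a fallen chain lie below the Normoxic libraries in both Sugen-Hypoxic libraries, by most for Il2rb over Il2rg, and the ratio of Il1r1 to Il1rap lies above.

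The receptors for type 2 cytokines did not pass. Il4ra, which binds IL-4 and, with Il13ra1, IL-13, was the second most abundant receptor per length at 34.7 CPM per kb. It was at 208 and 266 CPM in Sugen-Hypoxic lungs and 184 and 174 CPM in Normoxic lungs (log2 0.47 ± 0.12, adjusted p = 0.0583, edgeR). Both Sugen-Hypoxic libraries were above both Normoxic ones, as in 4002 of the 18783 genes tested. Il4ra passed in DESeq2 (adjusted p = 0.00117), which called more genes in all, but not in limma-voom or under the other scalings. Il13ra1 was at 61.4 and 71.4 CPM against 65.8 and 64.5 CPM. Il1rl1, which encodes the IL-33 receptor ST2, was at 4.99 and 7.48 CPM against 6.94 and 7.75 CPM, with overlap, while its ligand Il33 was higher in both Sugen-Hypoxic libraries. Il5ra, the eosinophil receptor for IL-5, was at 0.82 and 1.61 CPM against 2.96 and 1.75 CPM, and Il3ra, the IL-3 receptor chain, at 27.5 and 28.6 CPM against 23.7 and 25.8 CPM (adjusted p = 0.0892, edgeR). Il9r was at 3.24 and 4.81 CPM against 6.97 and 5.68 CPM. Il15ra, which presents IL-15, was at 13.4 and 12.4 CPM against 9.18 and 12.3 CPM, the last value close to the Sugen-Hypoxic ones.

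Genes known to respond to IL-4, IL-13 or IL-33 moved upward in part. Of 16 tested 5 rose and 0 fell, against 5.51% of all genes called higher: Arg1, Chil3, Ccl24, Ccl11 and Areg. The arginase gene Arg1 was at 26.3 and 113 CPM in Sugen-Hypoxic lungs and 1.65 and 1.7 CPM in Normoxic lungs, and the chitinase-like gene Chil3 at 1545 and 4337 CPM against 684 and 601 CPM. The eosinophil attractants Ccl11 and Ccl24 were at 8.76 and 15.2 CPM against 2.59 and 3.68 CPM, and at 2.77 and 11.2 CPM against 0.596 and 0.344 CPM. In all 5, as in Il33, Sugen-Hypoxic replicate 2 was above replicate 1. The same was true of genes in other lists, such as Col1a1 and Ighm, though not of all, such as S100a8. The part of IL-4, IL-13 or IL-33 in the levels of these genes was not tested. Chil3 is also a marker of alveolar macrophages, a list of 10 in which 1 rose and 1 fell and which summed to 1904 and 4864 CPM against 1131 and 1017 CPM. Without Chil3 the other 9 summed to 359 and 527 CPM against 448 and 415 CPM, with overlap. Of 5 tested eosinophil markers, Il5ra among them, 0 passed in edgeR (0 with an unadjusted p under 0.05), and the peroxidase Epx was at 0.0349 and 0 CPM against 0.119 and 0 CPM. Of 8 tested markers of type 2 lymphoid cells 2 rose, Areg and Arg1, which other cells express too, while Gata3 was at 11.1 and 10.3 CPM against 14.5 and 17.9 CPM. Of 10 tested mast cell and basophil markers 1 rose, Kit, which endothelium also expresses, and 2 fell, Fcer1a and Mcpt8, against 6.01% of all genes called lower.

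The soluble antagonists did not pass. Il1rn, the IL-1 receptor antagonist, was at 11.2 and 20.4 CPM in Sugen-Hypoxic lungs and 11 and 14 CPM in Normoxic lungs, with a log2 fold change of 0.41 ± 0.28. Il18bp, which binds IL-18, was at 7.82 and 11.4 CPM against 6.61 and 7.13 CPM, and Il22ra2, which binds IL-22, at 1.62 and 1.5 CPM against 3.1 and 1.89 CPM. Il4i1, an amino acid oxidase of macrophages and dendritic cells, was at 4.54 and 10.7 CPM against 6.75 and 6.41 CPM. In each of them except Il22ra2, Sugen-Hypoxic replicate 2 was the highest library.

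Downstream of the receptors, where the shares of all genes called were again 5.51% higher and 6.01% lower, 0 of 11 JAK and STAT genes rose and 3 fell: Stat4, which IL-12 activates, at 2.01 and 1.93 CPM in Sugen-Hypoxic lungs against 5.09 and 4.1 CPM in Normoxic lungs, and Stat5a and Stat5b by 0.35 and 0.34 on the log2 scale. Of 8 SOCS family feedback inhibitors 1 rose, Socs2, at 125 and 124 CPM against 105 and 103 CPM. Socs3, which IL-6 induces, was at 59.1 and 96.8 CPM against 48.5 and 45.9 CPM and did not pass (log2 0.79 ± 0.21, adjusted p = 0.0714, edgeR). Of 12 adaptors of the IL-1 and IL-17 receptors 0 passed in edgeR, 3 of them with an unadjusted p under 0.05. Of 7 inflammasome genes 1 fell, Nlrp3, a sensor that leads to IL-1 beta maturation, at 7.28 and 6.35 CPM against 11.6 and 10.4 CPM.

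Among 20 tested cytokines and receptors of these pathways with no Il symbol, 2 rose and 5 fell, against 5.51% and 6.01% of all genes. Lif, an IL-6 type cytokine, rose, at 8.48 and 8.11 CPM in Sugen-Hypoxic lungs against 5.76 and 5.56 CPM in Normoxic lungs. Osm, another cytokine of that type made by neutrophils and macrophages, fell to 2.41 and 2.98 CPM, against 5.59 and 4.84 CPM. The leptin receptor Lepr, a gp130-like receptor, fell to 85.4 and 85.3 CPM, against 143 and 135 CPM. Csf3r, Cntfr and Clcf1 fell by 1.23, 0.91 and 0.65 on the log2 scale. Of 12 genes induced by IL-6 type cytokines 2 rose, Saa3 and Cebpb, and of 9 tested genes induced by IL-17, Cxcl1 rose, at 1.88 and 2.71 CPM against 0.283 and 0.653 CPM, while S100a8 and S100a9, which are also neutrophil genes, fell by 1.14 and 1.14 on the log2 scale.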

How the data were processed

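Polyadenylated RNA of pooled mouse lungs was sequenced in 4 libraries. Per the submitters' processing notes, STAR 2.5.1b, HTSeq and GRCm38.p4 were used; no source used here gives the annotation, the kit's strandedness or any trimming. The deposited files hold the authors' raw read counts per gene, unstranded and by strand, for 47729 genes. The column counting the strand opposite to read 1 held 20.9 to 24.9 times as many reads as the other strand's and was used. Summary rows for unmapped (6.45 to 7.55%), multimapping (4.5 to 4.54%), featureless (7.73 to 9.98%) and ambiguous reads (1.1 to 1.13%) were left out. Reads with several placements are not counted per gene, so near-identical copies are undercounted.

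Symbols, coordinates and union exon lengths came from GENCODE M21 (GRCm38), which 47310 identifiers matched. Levels are counts per 1e6 gene counts (CPM), as single values or means. Values after ± are SEs of log2 fold changes, which follow TMM scaling (factors 0.967 to 1.030) and so differ slightly from CPM ratios. Genes kept by filterByExpr (18783) were tested with edgeR 4.0.16 (quasi-likelihood, R 4.3.3, group as the only term, all 4 libraries, two-sided) and adjusted by Benjamini-Hochberg at 0.05; SE is the log2 fold change over the root of F. Tested on data simulated from these libraries (18783 genes, Sugen-Hypoxic against Normoxic), it recovered 43.4%, 60.4% and 87.5% of genes changed 1.5-, 2- and 4-fold, and 4.63% of its calls were false. The simulation gave all genes of a level the same spread and did not model the sex of the pools. These shares therefore need not hold for the calls reported here. Alternatives used DESeq2 1.42.0 and limma-voom (limma 3.58.1), other scalings and filters, unstranded counts, the male fraction, and each library left out. The labels give no replicate numbers; those used here only name the libraries of a group and pair nothing; p-values measure only the spread between these pools.

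Genes were named by rule: those past the threshold, the 5 most abundant ligands and receptors per kb, and set ligand and receptor pairs; other members, and list genes that did not pass, were chosen after their values were seen. Members, roles and lists were chosen with earlier results of these data known. The result of 1 of the pathway list genes is not reported here.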

Additional observations from a re-analysis of the deposited data

How the results depend on the processing

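All 10 calls passed under RLE, upper-quartile and library-size scaling, DESeq2, limma-voom, no expression filter, a mean CPM of at least 1 and unstranded counts, and no scaling moved the median of all genes by more than 0.069 on the log2 scale. Il17re also passed under upper-quartile and library-size scaling and the CPM filter. DESeq2 called 3254 genes in all and 3 more members, Il17re, Il1rl2 and Il4ra, with 3 members higher. No filter gave 3657 genes and 5 members higher, adding Il17re, Il18bp, Il1rl2, Il33 and Il4ra. With the male fraction as a covariate 11 genes were called, 0 members higher, 0 lower, 0 ligands and 0 receptors lower, and the receptor median was -0.07. With 1 library left out the lone library is assumed to vary like the other group. The count of genes then ranged from 25 to 5101, members higher from 0 to 10, members lower from 0 to 18, ligands lower from 0 to 5 and receptors lower from 0 to 13, and the medians from -0.46 to 0.14 for ligands and -0.39 to -0.02 for receptors. The lowest counts came without Normoxic replicate 1 and the highest without a Sugen-Hypoxic library. The cause was not tested.

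None of the 10 called genes reversed; those below had not passed. Under the male covariate the log2 fold change was 0.00 for Il10rb, 0.13 for Il15, -0.06 for Il15ra, -0.39 for Il1bos, 0.17 for Il22ra2, 0.20 for Il23r, -0.83 for Il31ra, 0.04 for Il6, 0.09 for Il6st and 0.10 for Il7r. Il10rb was 0.01 under RLE and DESeq2 and 0.00 with no filter and unstranded counts, and Il17rc 0.00 under RLE and DESeq2. Il18 was -0.05, -0.07 and -0.01 under upper-quartile scaling, library size and the CPM filter, and Il1a -0.05, -0.06 and 0.00 under these and -0.03 in limma-voom. Unstranded counts gave 0.15 for Il4 and -0.12 for Il4i1. With 1 library left out the ranges were -0.03 to 0.03 for Il10rb, -0.84 to 0.06 for Il12rb1, 0.00 to 0.19 for Il13ra1, -0.17 to 0.11 for Il15, -0.07 to 0.06 for Il17rc, -0.05 to 0.26 for Il17rd, -0.12 to 0.11 for Il18, -0.49 to 0.37 for Il1a, -0.04 to 0.73 for Il1bos, -0.39 to 0.02 for Il1r2, -0.47 to 0.08 for Il1rl1, -0.07 to 0.77 for Il1rn, -0.22 to 0.34 for Il20rb, -0.56 to 0.10 for Il23r, -0.45 to 0.69 for Il31ra, -0.87 to 0.56 for Il4 and -0.45 to 0.75 for Il4i1. No paired analysis was possible because the labels carry no replicate numbers, and those used here only name libraries. Depth limits the 29 members under the filter.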
